A study of Nothobranchius furzeri with 3 samples.

Results

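Axon guidance, ephrin and Notch genes were examined in the basal layer of the fin epidermis of *Nothobranchius furzeri*, the African turquoise killifish. The members were all rows of the deposited gene table whose symbol, written in lower case, names a semaphorin, plexin, neuropilin, Slit, Robo receptor, Slit-Robo GTPase-activating protein (srGAP), netrin, UNC5 or DCC receptor, ephrin, Eph receptor, Notch receptor, or Delta or Jagged ligand. This rule took 99 of 22954 rows, which carry 90 distinct symbols. A single row, *unc50*, was taken by its spelling alone, is not a netrin receptor and held 4 counts. The rule used names only, no measured value.

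The libraries came from p63-positive cells, made by photo-isolation chemistry (PIC), in which only transcripts of UV-irradiated cells are amplified, and each count is 1 unique molecular identifier (UMI), a tag that marks 1 captured mRNA. There were 4 libraries of young fish and 4 of aged fish, both kept in the solvent DMSO, and 3 of aged fish given tunicamycin at 1 µg/mL, overnight by the labels and for 1 day by the study's methods, here called aged (Tm). Tunicamycin blocks N-linked glycosylation and causes stress in the endoplasmic reticulum. By the study's methods the fish are of the GRZ strain, the labels give no genotype beyond the species, and they give no ages. The study counts its libraries as biological replicates, and how many fish stand behind each library is not stated in the sources used here, so the p-values measure the spread between these libraries.

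Semaphorins signal through plexins, and most secreted class 3 semaphorins need a neuropilin as co-receptor. Plexins act on small GTPases of the Ras family and on the actin cytoskeleton. Slits bind Robo receptors, whose signal passes in part through srGAPs, and netrins bind DCC and UNC5 receptors. Ephrins are membrane-bound ligands of Eph receptor tyrosine kinases, and both sides can signal. Delta and Jagged ligands on 1 cell activate Notch receptors on its neighbour, and the cleaved Notch domain then drives transcription of repressors of the Hairy and Enhancer-of-split family. In mammalian epidermis Notch signalling promotes the differentiation of keratinocytes that leave the basal layer, and EphA2 and its ligand ephrin-A1 act at keratinocyte contacts. The same families steer sensory axons and vessels in skin.

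Library totals ran from 35366 to 298033 counts in the young, from 37655 to 265509 in the aged and from 319223 to 705538 in the aged (Tm) group. The sum of 12 basal keratinocyte marker rows, all of them detected, averaged 41705, 32138 and 18335 CPM (counts scaled to a library total of 1e+06) in the young, aged and aged (Tm) groups, and the sum of 31 skeletal muscle rows averaged 49437, 15523 and 5681 CPM. The keratin gene *krt5* made up most of the first sum, with means of 33828, 24614 and 9059 CPM, while of the 7 basal keratinocyte rows tested in aged (Tm) over aged samples 2 rose and 1 fell, with a median of 1.03 on the log2 scale. The conditions reuse 3 of 4 distinct primer barcodes, so each condition was a separate pool, and pool and condition cannot be told apart. Trimmed-mean (TMM) scaling factors were 1.87 at most in aged and 0.616 at least in aged (Tm) libraries, so fitted fold changes are smaller than ratios of CPM for genes that are lower in aged (Tm) samples.

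Counts were scarce. The 99 members held 4425 counts over all 11 libraries, with a median of 38 and a range of 1 to 274 per row. Of them, 9 held at least 100 counts, 27 held 50 to 99, 40 held 20 to 49 and 23 held fewer than 20, and 26 had at least 1 count in every library. A filter on low counts (filterByExpr, with a cutoff of 55.5 CPM) kept 22 members of the 3963 genes tested. Of these 22 members, 18 had no aged (Tm) library past the cutoff and passed through young or aged libraries, in part the shallow ones, where 2 or 3 counts are past it. A count over these 22 members is therefore a description of members high in those groups, and not of the families as a whole.

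The families with the most counts were the class 4 to 7 semaphorins (17 rows, 786 counts, 2 tested), the plexins (10 rows, 611 counts, 4 tested), the class 3 semaphorins (11 rows, 537 counts, 3 tested) and the Eph receptors (14 rows, 497 counts, 3 tested). Notch receptors followed with 292 counts over 4 rows, of which 2 were tested. Robo receptors (4 rows, 278 counts) and Slits (4 rows, 246 counts) had 2 tested rows each. UNC5 and DCC receptors (6 rows, 267 counts), ephrins (10 rows, 234 counts), srGAPs (5 rows, 232 counts) and Delta and Jagged ligands (4 rows, 205 counts) had 1 tested row each. No row of the neuropilins (4 rows, 158 counts) or netrins (5 rows, 78 counts) was tested. The semaphorin ligands and their plexin receptors thus had testable rows, while the neuropilin co-receptors and the netrin ligands did not.

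Summed over the members, the level was lowest in aged (Tm) samples. The sum was 2206 ± 877 CPM (SD, n = 4) in the young, 3754 ± 1632 CPM (n = 4) in the aged and 1061 ± 523 CPM (n = 3) in the aged (Tm) group. It ranged from 945 to 2969 CPM in young, from 1910 to 5418 CPM in aged and from 711 to 1663 CPM in aged (Tm) libraries, so that aged and aged (Tm) libraries did not overlap and young libraries overlapped with both. Members at 1 count or more numbered 50 to 92 in young, 68 to 94 in aged and 70 to 92 in aged (Tm) libraries, and 26 to 53, 44 to 70 and 21 to 41 after every library was thinned to 35366 counts. The number of all genes detected at that depth moved with it, with 5700 to 9205, 7257 to 11547 and 5095 to 7444 genes. In samples of pooled RNA, fewer cells of a type and less RNA per cell cannot be told apart.

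**Figure D1:**
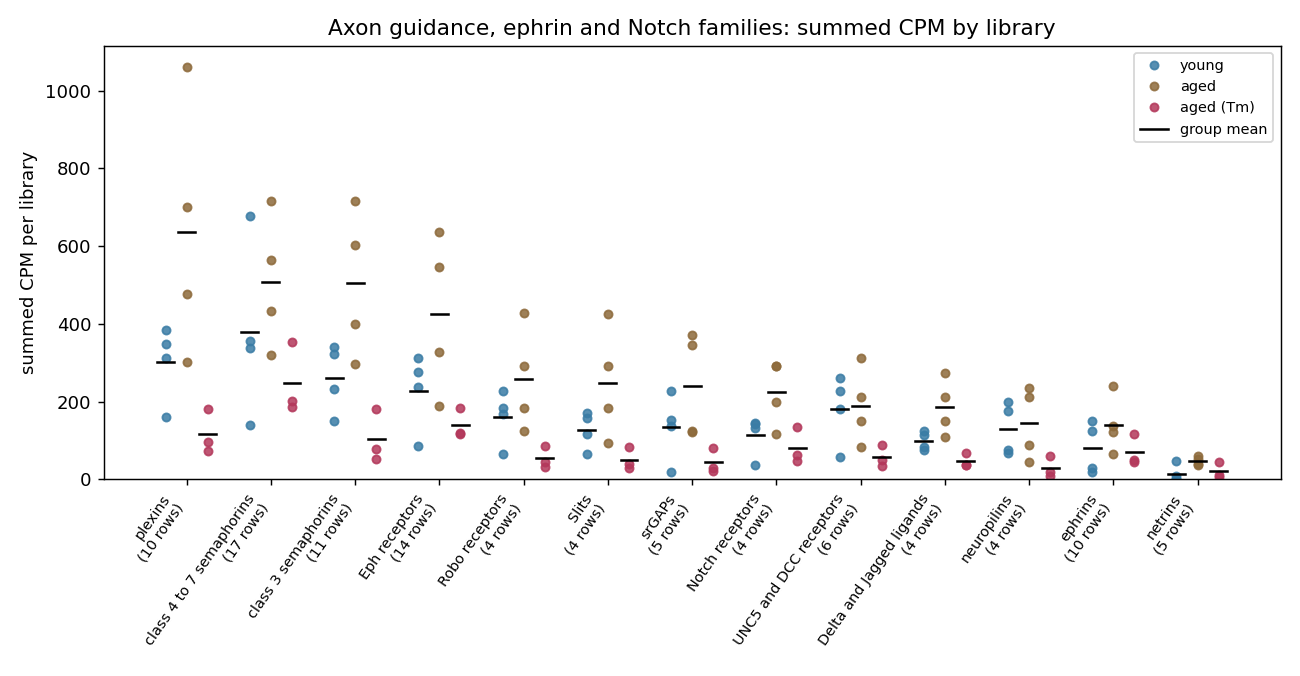
Summed CPM (vertical axis) of each family (horizontal axis, number of rows in brackets) in each library, as points coloured by group, with black lines for group means. For the class 3 semaphorins, plexins and Slits every aged library is above every aged (Tm) library, while the aged and young points of most families overlap.

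The plexins showed this pattern by library. Their sum was 159, 385, 311 and 349 CPM in young replicates 1 to 4, 1062, 301, 701 and 477 CPM in aged replicates 1 to 4, and 95.1, 72.0 and 181 CPM in aged (Tm) replicates 1 to 3. All aged (Tm) libraries were below all aged libraries, and aged replicates 1 and 3, which have the lowest totals among the aged libraries, were highest. The class 4 to 7 semaphorins differed from it, since aged (Tm) replicate 3 (353 CPM) was above aged replicate 2 (320 CPM). Ephrins also overlapped, with 43.9 to 118 CPM in aged (Tm) and 64.0 to 239 CPM in aged libraries. Notch receptors and neuropilins overlapped too, with at most 133 and 59.5 CPM in aged (Tm) and at least 117 and 45.2 CPM in aged libraries. The same held for netrins (at most 45.4, at least 37.7 CPM) and for UNC5 and DCC receptors (at most 87.9, at least 82.9 CPM).

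The sum of a list of 136 neural and photoreceptor genes that are scarce in epidermis moved with the members. It ranged from 917 to 3563 CPM in young, from 1507 to 6533 CPM in aged and from 482 to 1176 CPM in aged (Tm) libraries. The libraries with the highest sums, aged replicates 1 and 3, were also those with the highest member sums, and aged (Tm) replicate 2 was lowest in both. Among aged libraries these 2 were also highest for the skeletal muscle list (25043 and 23187 CPM) and the endothelial list (505 and 390 CPM). Thinned to equal depth, they had the most genes detected (11547 and 10879). The immune list was lowest in them among aged libraries (531 and 721 CPM), and the erythrocyte, fibroblast, pigment and keratinocyte lists were not highest in both. What this order reflects was not tested. Of the 25 genes of this list that were tested, 17 fell and 0 rose in aged (Tm) over aged samples, and the median was −1.81 on the log2 scale. This list was written by an earlier examination of the same data and is given for description.

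**Figure D2:**
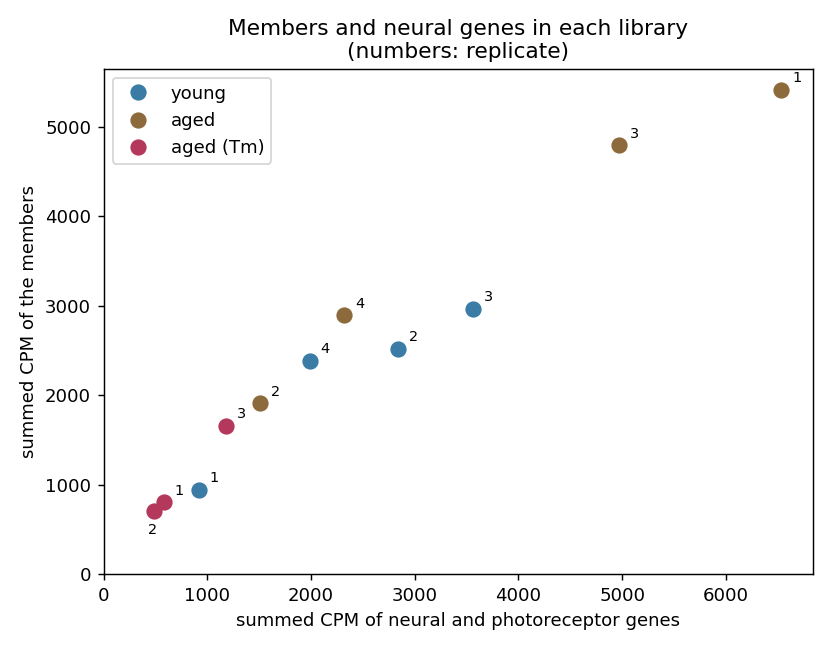
Summed CPM of the 99 members (vertical axis) against summed CPM of 136 neural and photoreceptor genes (horizontal axis), 1 point per library, coloured by group and numbered by replicate. The libraries lie along 1 band from aged (Tm) replicate 2 (482 and 711 CPM) to aged replicate 1 (6533 and 5418 CPM).

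Lists of neurons with Schwann cells (21 of 21 rows detected) and of endothelium (14 of 14), whose cells use these families, also had their lowest mean sums in aged (Tm) samples. Neuron and Schwann cell markers ranged from 225 to 311 CPM in young, 132 to 584 CPM in aged and 28.2 to 120 CPM in aged (Tm) libraries. Endothelial markers ranged from 84.2 to 262 CPM, from 113 to 505 CPM and from 54.8 to 125 CPM in the same order, so aged and aged (Tm) libraries overlapped. The only endothelial row tested, *egfl7*, was not called in aged (Tm) over aged samples (−0.09, adjusted p = 0.926, edgeR). The only 2 tested rows of the other list were *erbb3b*, with means of 112, 66.6 and 11.4 CPM in the groups, and *erbb3a*, with 33.9, 50.1 and 10.1 CPM. The defining neuronal gene *elavl3* held 1, 1 and 0 counts in the groups and each of the 2 rows of the Schwann cell gene *sox10* held 1 count in all, while the endothelial *cdh5* held 12, 4 and 14. Other untested neuronal and Schwann cell rows held more, such as *nefl* (12, 14 and 6), *neflb* (5, 14 and 12) and *plp1a* (12, 4 and 6). Some were as scarce, such as *mbpb* (0, 1 and 0). Neither list was tested as a source of the members' counts.

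The comparison of aged with young samples asked how these families differ with age. No member passed the threshold of an adjusted p of 0.1 (edgeR's quasi-likelihood test, Benjamini-Hochberg over all genes tested), against 0.707% of all genes tested. At an unadjusted p below 0.05 there were 2 members, *plxna2* and *sema3ab*, against 242 of all genes. No member passed without the filter either (0.0915% of all rows), and DESeq2 called 1, *plxna2*, of the 14 members that it tested (2.31% of all genes it tested). Aged and young libraries did not overlap for 1 of the 22 members, against 3.66% of all genes tested.

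That member was the *plxna2* row ENSNFUG00015010192. Plexin-A2 is a receptor of class 3 and class 6 semaphorins. It had 1, 4, 0 and 7 counts in young replicates 1 to 4, 8, 12, 6 and 17 counts in aged replicates 1 to 4, and 3, 5 and 7 counts in aged (Tm) replicates 1 to 3. As CPM these were 9.36, 29.1, 0 and 23.5 in young, 212, 45.2, 117 and 94.3 in aged, and 8.65, 15.7 and 9.92 in aged (Tm) libraries. Every aged library was above every young and every aged (Tm) library, while young and aged (Tm) libraries overlapped. The row passed the filter through 3 aged libraries, with 0 young and 0 aged (Tm) libraries past the cutoff. The gap and the edgeR p-values against aged samples therefore describe a row that was kept for its high aged level. The log2 fold change was 2.24 ± 0.61 (SE) in aged over young (adjusted p = 0.136, edgeR) and −2.75 ± 0.61 in aged (Tm) over aged samples (adjusted p = 0.00542). In aged (Tm) over young samples it was −0.51 ± 0.70 (adjusted p = 0.598), and the comparisons share the aged libraries. The adjusted p of aged over young was 0.0539 with DESeq2, 0.0604 with the summed neural list as a covariate and 0.0204 with the muscle list as a covariate. Muscle sums of aged (5955 to 25043 CPM) and young libraries (24618 to 95402 CPM) barely overlapped, so this covariate is nearly tied to the group. The other *plxna2* row, ENSNFUG00015007792, was not tested and held 21, 24 and 16 counts in the groups. Reads that match both copies could be split between them.

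*sema3ab*, a secreted class 3 semaphorin and a copy of the gene whose mammalian form repels sensory axons, had 0, 7.27, 56.6 and 30.2 CPM in young replicates, 186, 56.5, 39.0 and 72.1 CPM in aged replicates and 0, 0 and 15.6 CPM in aged (Tm) replicates. The aged libraries were all above the aged (Tm) libraries and overlapped with the young libraries at young replicate 3, which rests on 2 counts. *sema3ab* passed the filter with 3 aged, 1 young and 0 aged (Tm) libraries past the cutoff. Its edgeR p-values against aged samples are likewise descriptions of a row kept mainly for its aged level. Its log2 fold change in aged over young samples was 1.93 ± 0.79 (adjusted p = 0.626). In aged (Tm) over aged samples it was −3.23 ± 0.82 (adjusted p = 0.0107, edgeR). All 11 of its counts in the aged (Tm) group were in replicate 3, so that without it the group is at 0 and no fold is given.

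The comparison of aged (Tm) with aged samples asked what changed with tunicamycin. Of the 22 members tested, 2 rose, the semaphorin *sema4e* and the Eph receptor *epha2*, and 11 fell (adjusted p below 0.1, edgeR). Those that fell were the ligands *sema3ab*, *sema3bl*, *slit2*, *slit3* and *jag1b*, the receptors *plxna1a*, *plxna2*, *plxnd1*, *robo2* and *epha6*, and *srgap1a*, a GTPase-activating protein that binds Robo receptors. None of these 11 had an aged (Tm) library past the filter's cutoff. Their edgeR p-values against aged (Tm) samples, here and below, are therefore descriptions of rows kept for their young or aged levels. Over all genes tested 18.5% rose and 20.2% fell, which is 38.7% called in either direction. The table places *sema4e* on sgr09, *epha2* and the called *plxna2* row on sgr10, *sema3ab* and *srgap1a* on sgr13, *sema3bl*, *plxna1a* and *plxnd1* on sgr15, *slit3* on sgr01, *slit2* on sgr08, *robo2* on sgr06, *epha6* on sgr07 and *jag1b* on sgr03, its own chromosome labels. The median log2 fold change of the 22 members was −1.62, against −0.03 over all genes tested, and since the filter kept members through the aged and young groups this median is a description only.

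The counts depended on which rows were tested. Without a filter 4 of 99 members were called, *sema4e* and *epha2* higher and *plxna2* and *sema3ab* lower, against 6.12% higher and 0.754% lower of all rows. Among the 36 members with at least 50 counts over all libraries, a choice that uses no group, 2 rose and 17 fell, against 16.9% higher and 14.2% lower of the genes with as many counts. Among the 15 members of the 3963 genes with the highest average level, 1 rose and 7 fell, against 15.5% and 16.1%. By CPM, which does not use the TMM factors, 16 of the 22 members did not overlap between aged (Tm) and aged libraries. Of these, 15 were lower in aged (Tm) samples. In either direction 36.1% of all genes tested did not overlap, and no share for lower genes alone is given. CPM are scaled by totals only, and under that scaling the fold changes of all genes tested leaned downward (log2 median −0.58). The filter kept the members mainly through aged and young libraries. The count of 15 is therefore a description and does not set the members apart from other genes.

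The counts also depended on libraries and covariates. With the summed neural and photoreceptor list as a covariate 0 of 22 members and 1.34% of all genes were called. The sums of this list did not overlap between aged (1507 to 6533 CPM) and aged (Tm) libraries (482 to 1176 CPM). List and group therefore cannot be told apart in this fit, and the loss of calls decides nothing. There were 6 members called without aged (Tm) replicate 1, 8 without aged (Tm) replicate 2, 7 without young replicate 4, and 6, all lower, without both aged replicates 1 and 3. With the muscle list as a covariate 6 were called, all lower. For this run and those that leave out libraries no share of all genes called is given. Their counts therefore do not set the members apart from other genes. Under RLE scaling, which moves the median of all genes to 0.18, the same 2 members rose and the same 11 fell, while the calls over all genes changed from 733 higher and 801 lower to 960 and 659. Scaling by totals alone gave 1 higher and 13 lower members, with 370 genes higher and 1025 lower and a median of −0.58 over all genes. With the upper quartile 1 member rose and 16 fell, with 420 genes higher and 1225 lower and a median of −0.52.

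**Figure D3:**
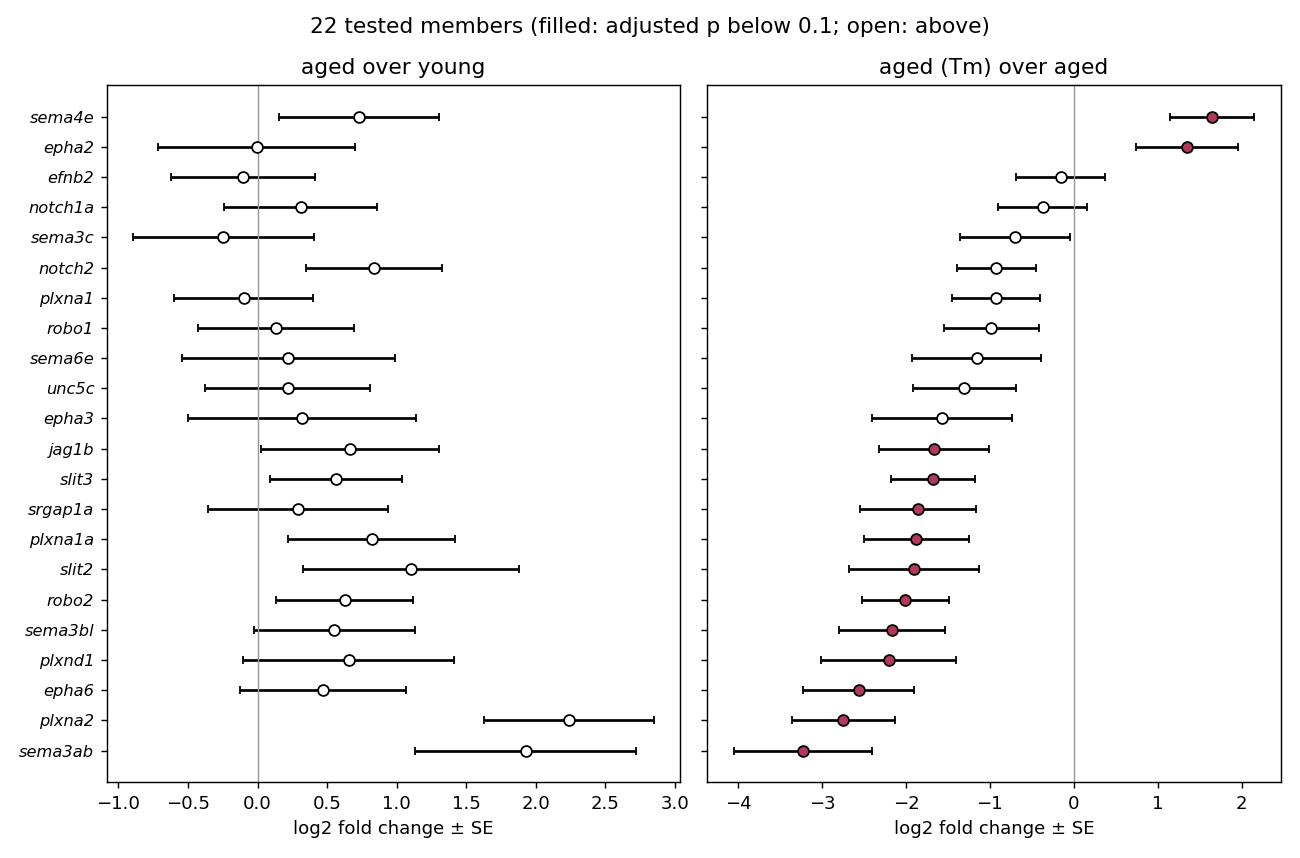
Log2 fold change (horizontal axis, bars for SE) of the 22 tested members in aged over young (left) and aged (Tm) over aged samples (right). Filled points have an adjusted p below 0.1. On the right *sema4e* (1.65) and *epha2* (1.35) stand above 0 and 11 members from *jag1b* (−1.67) to *sema3ab* (−3.23) below, and on the left no point is filled.

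*sema4e*, a membrane-bound class 4 semaphorin, was the member with the most counts and the only one that all 3 aged (Tm) libraries carried past the filter's cutoff. Its counts were 4, 4, 0 and 13 in young replicates, 1, 19, 1 and 12 in aged replicates, and 40, 40 and 140 in aged (Tm) replicates. As CPM these were 37.4, 29.1, 0 and 43.6 in young, 26.6, 71.6, 19.5 and 66.5 in aged, and 115, 125 and 198 in aged (Tm) libraries. All aged (Tm) libraries were above all others, while young and aged libraries overlapped. The group means were 27.5 ± 19.3, 46.0 ± 26.8 and 146 ± 45.4 CPM (SD, n = 4, 4 and 3). *sema4e* passed the filter with 3 aged (Tm), 2 aged and 0 young libraries past the cutoff. Its edgeR p-values against aged (Tm) samples are therefore descriptions of a row kept mainly for its aged (Tm) level. The log2 fold change was 1.65 ± 0.50 over aged samples (adjusted p = 0.0240, edgeR) and 2.38 ± 0.54 over young samples (adjusted p = 0.00449). Without aged replicates 1 and 3, with 1 count each, the first was 1.41 (adjusted p = 0.127), and with the muscle list as a covariate it was 1.11 (adjusted p = 0.127) and the second 0.29 (adjusted p = 0.933). Muscle sums of young (24618 to 95402 CPM) and aged (Tm) libraries (4621 to 7401 CPM) did not overlap. The value of 0.29 therefore cannot tell muscle list and group apart. No aged over young difference was called (0.73 ± 0.57, adjusted p = 0.980).

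*epha2*, a receptor tyrosine kinase that human keratinocytes express, had 9.36, 36.3, 56.6 and 30.2 CPM in young replicates, 53.1, 22.6, 19.5 and 33.3 CPM in aged replicates and 74.9, 72.0 and 26.9 CPM in aged (Tm) replicates. The first and second aged (Tm) libraries were above all others, while the third lay within the range of both other groups. *epha2* passed the filter with 2 aged (Tm), 1 young and 0 aged libraries past the cutoff. Its edgeR p-values against aged (Tm) samples are likewise descriptions of a row kept mainly for its aged (Tm) level. The log2 fold change in aged (Tm) over aged samples was 1.35 ± 0.60 (adjusted p = 0.0935, edgeR), close to the threshold. The call was lost without aged replicate 3 (1.35, adjusted p = 0.135), with limma voom (1.17, adjusted p = 0.129), under upper quartile scaling (0.79) and under scaling by totals (0.68). It was kept in edgeR without the filter (2.04, adjusted p = 0.0334) and with DESeq2 (1.91, adjusted p = 0.0380). Over young samples the log2 fold change of *epha2* was 1.34 ± 0.60 (adjusted p = 0.110, edgeR) and was not called. There it was called without the filter (1.87, adjusted p = 0.0743, edgeR) and by DESeq2 (1.88, adjusted p = 0.0364). The ligands of *epha2* could not be tested, and *efna1a*, the ephrin-A1 row with the most counts, held 8, 6 and 15 counts in the groups.

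**Figure D4:**
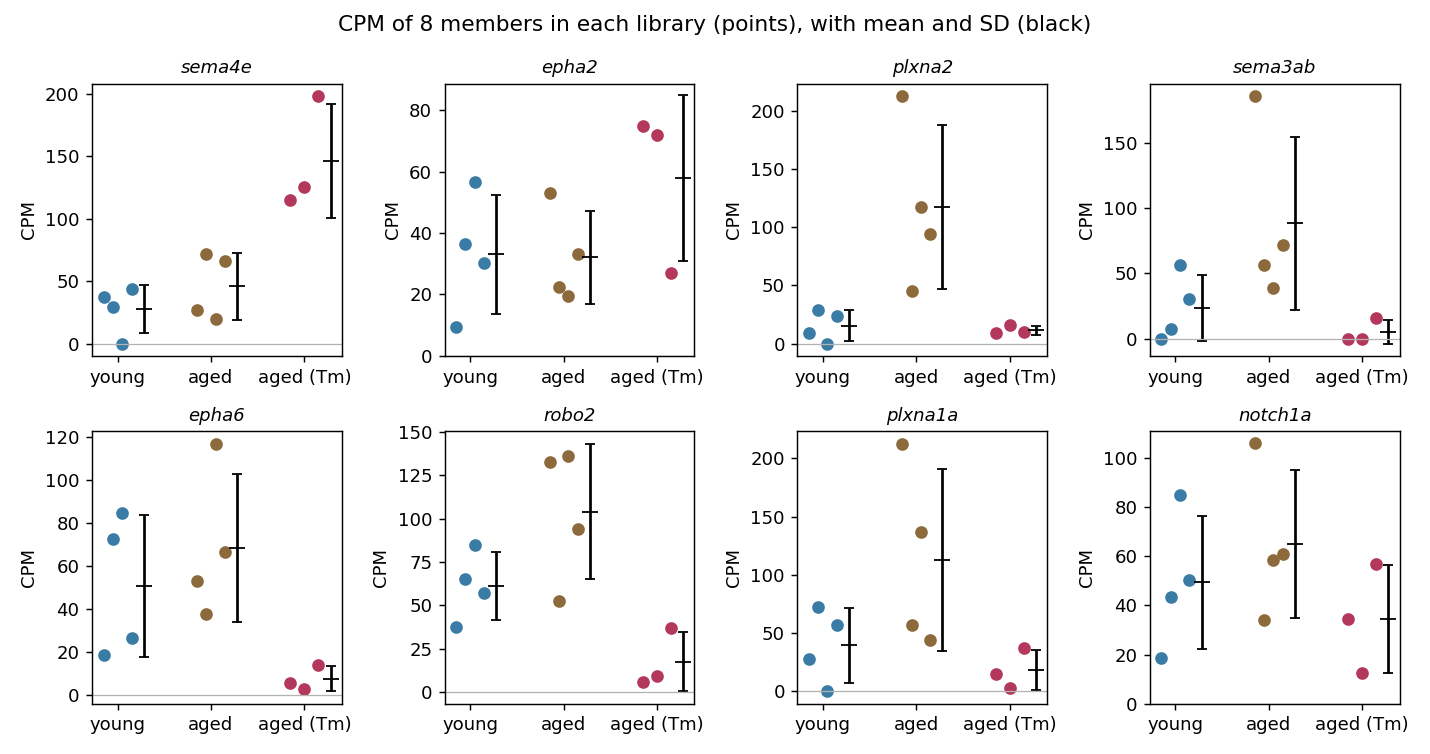
CPM (vertical axis) of 8 members in young, aged and aged (Tm) libraries (points), with mean and SD beside them in black. *sema4e* is highest in the 3 aged (Tm) libraries (115 to 198 CPM) and *plxna2* in the 4 aged libraries (45.2 to 212 CPM), while *notch1a* overlaps between all groups.

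Among the ligands that fell, *sema3bl*, a class 3 semaphorin, had 18.7, 21.8, 56.6 and 63.8 CPM in young, 133, 60.3, 39.0 and 38.8 CPM in aged and 5.76, 9.40 and 15.6 CPM in aged (Tm) replicates. The aged (Tm) libraries were below all others. *sema3bl* passed the filter with 2 young, 2 aged and 0 aged (Tm) libraries past the cutoff, so its p-values are descriptions. The log2 fold change was −2.16 ± 0.63 over aged (adjusted p = 0.0194) and −1.61 ± 0.64 over young samples (adjusted p = 0.0765, both edgeR). Its second call was lost under RLE scaling (−1.39, adjusted p = 0.114) and without aged replicate 4, young replicate 3 or any 1 of the aged (Tm) replicates, with values from −1.38 to −1.60, and under scaling by totals (−1.95, adjusted p = 0.118). The third class 3 semaphorin tested, *sema3c*, which guides cardiac neural crest cells in mice, had means of 53.3 ± 6.5, 43.6 ± 13.1 and 22.3 ± 25.2 CPM in the 3 groups, in the order young, aged and aged (Tm), and was not called (−0.70 ± 0.66, adjusted p = 0.408).

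*slit3* and *slit2* encode secreted ligands of Robo receptors. *slit3* had 46.8, 43.6, 84.8 and 101 CPM in young, 79.7, 60.3, 214 and 105 CPM in aged and 17.3, 21.9 and 38.3 CPM in aged (Tm) replicates, and its log2 fold change in aged (Tm) over aged samples was −1.68 ± 0.50 (adjusted p = 0.0215, edgeR). All 3 aged (Tm) libraries were below all others. *slit2* had 0, 29.1, 84.8 and 26.8 CPM in young, 212, 18.8, 39.0 and 55.5 CPM in aged and 14.4, 3.13 and 18.4 CPM in aged (Tm) replicates (−1.90 ± 0.78, adjusted p = 0.0680). Its aged and aged (Tm) libraries were barely apart, 18.8 against 18.4 CPM, and the aged mean rests on replicate 1 with 8 counts. Without aged (Tm) replicate 1 the call of *slit3* was lost (−1.44, adjusted p = 0.106), and without any 1 aged (Tm) replicate that of *slit2* (−1.44 to −2.00), whose sign turned with the neural list as a covariate (0.10). With DESeq2 *slit2* was not called (−1.55, adjusted p = 0.118).

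*robo2*, a Slit receptor, had 37.4, 65.4, 84.8 and 57.0 CPM in young, 133, 52.7, 136 and 94.3 CPM in aged and 5.76, 9.40 and 36.9 CPM in aged (Tm) replicates. The aged (Tm) libraries were below all young and aged libraries, by a small gap to young replicate 1. *robo2* passed the filter with 3 young, 3 aged and 0 aged (Tm) libraries past the cutoff, so its p-values are descriptions. The log2 fold change was −2.01 ± 0.52 over aged (adjusted p = 0.0114) and −1.38 ± 0.53 over young samples (adjusted p = 0.0685, both edgeR). The second call was lost without aged replicate 4, young replicate 2 or 4, or aged (Tm) replicate 1 or 2, with values from −1.03 to −1.44, under RLE scaling (−1.18, adjusted p = 0.105) and under scaling by totals (−1.68, adjusted p = 0.101). The tested *robo1* row, ENSNFUG00015000725, was not called, with means of 51.3 ± 27.6, 62.0 ± 31.5 and 20.6 ± 5.67 CPM (−0.98 ± 0.57, adjusted p = 0.183), and the other row, ENSNFUG00015024808, held 18, 21 and 14 counts. *srgap1a* had 0, 94.5, 170 and 40.3 CPM in young, 106, 45.2, 175 and 44.4 CPM in aged and 17.3, 9.40 and 21.3 CPM in aged (Tm) replicates (−1.85 ± 0.69, adjusted p = 0.0491). Its aged and aged (Tm) libraries did not overlap, the young libraries spanned both, and the call was lost without aged replicate 3 (−1.38) or any 1 aged (Tm) replicate (−1.55 to −1.88).

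Of the plexins, *plxna1a* had 28.1, 72.7, 0 and 57.0 CPM in young, 212, 56.5, 136 and 44.4 CPM in aged and 14.4, 3.13 and 36.9 CPM in aged (Tm) replicates, and its log2 fold change was −1.87 ± 0.62 over aged samples (adjusted p = 0.0324, edgeR). Aged and aged (Tm) libraries did not overlap, and young libraries overlapped with both. *plxnd1*, which in mice is a receptor of Sema3e on vessels, had 9.36, 43.6, 56.6 and 13.4 CPM in young, 79.7, 18.8, 77.9 and 33.3 CPM in aged and 2.88, 12.5 and 5.67 CPM in aged (Tm) replicates (−2.20 ± 0.81, adjusted p = 0.0468), from 40 counts in all. Its aged (Tm) libraries were below every aged library. The calls were lost without aged (Tm) replicate 1 or 2 for *plxna1a* (−1.72 and −1.38) and without aged (Tm) replicate 1 or 3 for *plxnd1* (−1.84 and −1.49). *plxna1* was not called (−0.92 ± 0.52, adjusted p = 0.176), with means of 67.4 ± 31.3, 81.9 ± 53.5 and 28.4 ± 21.2 CPM.

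Among Eph receptors, *epha6* had 18.7, 72.7, 84.8 and 26.8 CPM in young, 53.1, 37.7, 117 and 66.5 CPM in aged and 5.76, 3.13 and 14.2 CPM in aged (Tm) replicates. Every aged (Tm) library was below every young and aged library. The log2 fold change was −2.56 ± 0.66 over aged (adjusted p = 0.0114) and −2.09 ± 0.68 over young samples (adjusted p = 0.0358, both edgeR), so that *epha2* and *epha6*, both receptors of ephrin-A ligands, moved in opposite directions over aged samples. *epha6* passed the filter with 2 young, 2 aged and 0 aged (Tm) libraries past the cutoff, so both p-values are descriptions. Its second call was lost without young replicate 2 or aged (Tm) replicate 1 or 2, with values from −1.64 to −1.95. *epha3*, another receptor of ephrin-A ligands, ranged from 9.36 to 84.8, from 16.6 to 106 and from 0 to 17.0 CPM in the groups and was not called (−1.57 ± 0.84, adjusted p = 0.152). The only ephrin tested, the *efnb2* row ENSNFUG00015007525, a transmembrane ligand of EphB receptors, had 48.0 ± 33.5, 62.6 ± 31.8 and 38.0 ± 19.1 CPM (−0.16 ± 0.53, adjusted p = 0.832).

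In the Notch pathway the ligand *jag1b* fell and neither tested receptor was called. *jag1b* had 9.36, 58.1, 56.6 and 20.1 CPM in young, 79.7, 45.2, 77.9 and 33.3 CPM in aged and 14.4, 6.27 and 17.0 CPM in aged (Tm) replicates (−1.67 ± 0.65, adjusted p = 0.0596, edgeR). Its aged and aged (Tm) libraries did not overlap, and the call was lost without aged replicate 1 (−1.52) or 3 (−1.49) or any 1 aged (Tm) replicate (−1.33 to −1.75). DESeq2 did not call *jag1b* (−1.29, adjusted p = 0.159). *notch1a* had 49.4 ± 27.3, 64.9 ± 30.1 and 34.6 ± 22.1 CPM (−0.37 ± 0.53, adjusted p = 0.595) and *notch2* 38.0 ± 17.8, 86.0 ± 31.3 and 31.7 ± 10.9 CPM (−0.92 ± 0.47, adjusted p = 0.138). The libraries of *notch2* did not overlap between aged and aged (Tm) samples, those of *notch1a* did, and a miss of the threshold does not show that either level was equal.

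Other tested members were not called in aged (Tm) over aged samples. The membrane-bound semaphorin *sema6e* ranged from 0 to 141, from 27.7 to 79.7 and from 5.76 to 26.9 CPM in the groups (−1.15 ± 0.77, adjusted p = 0.247). The *unc5c* row ENSNFUG00015024648, a netrin receptor that mediates repulsion, had 53.3 ± 32.0, 70.9 ± 57.5 and 18.6 ± 6.99 CPM (−1.30 ± 0.62, adjusted p = 0.110). Both had all aged (Tm) libraries below all aged libraries by CPM, which does not use the TMM factors, and such a gap need not remain after TMM scaling.

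The third comparison, of aged (Tm) with young samples, called 4 of 22 members, *sema4e* higher and *epha6*, *robo2* and *sema3bl* lower, against 15.9% higher and 13.2% lower of all genes tested. The aged (Tm) and young libraries of 5 members did not overlap, these 4 and *slit3*, against 31.0% of all genes tested. The share called, 18.2%, was below that of all genes, 29.1%. The number called was 1, *sema4e*, without aged (Tm) replicate 1 or 2, 2 without young replicate 4, 7 without aged replicate 1, 8 without aged replicate 3 and 10 without young replicate 1. No share of all genes called is given for these runs, so they too do not set the members apart from other genes. No member was called with the neural list or the muscle list as a covariate. The muscle sums of young (24618 to 95402 CPM) and aged (Tm) libraries (4621 to 7401 CPM) did not overlap, so muscle list and group cannot be told apart. Without a filter 3 members were called, *sema4e* and *epha2* higher and *sema4gb* lower, against 5.39% of all rows. *sema4gb* is a class 4 semaphorin that the main filter did not keep. The young group held 8 counts of *sema4gb*, the aged group 4 and the aged (Tm) group 0. Against a floor of 3 counts over the aged (Tm) group, or 2.19 CPM, its pooled level of 13.8 CPM in young samples was 6.33-fold higher. This ratio takes the 8 young counts as exact and measures no spread between libraries, so it is not a lower bound. The young counts were 0, 4, 0 and 4 by replicate, and the ratio was 4.15-fold without replicate 2.

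Of the members that were not tested, the most abundant by count are given as counts in young, aged and aged (Tm) samples, whose totals were 577882, 534804 and 1371706. Class 3 semaphorins were led by *sema3fa* with 12, 30 and 18 counts and *sema3b* with 21, 18 and 16. Among the membrane-bound semaphorins *sema5a* held 31, 24 and 24 counts, *sema6d* 20, 18 and 15, and *sema6dl* 8, 25 and 17. By CPM every aged library of *sema6dl* (39.0 to 55.5) was above every young (at most 20.1) and aged (Tm) library (at most 22.7). These aged values rest on 2, 11, 2 and 10 counts in replicates 1 to 4. No share of all rows with such gaps is given, so this describes 1 untested row named after its values were seen. Of its aged (Tm) counts 16 were in replicate 3. None of these rows held more counts in aged (Tm) than in aged samples, although the aged (Tm) total was the larger. The neuropilins, co-receptors of class 3 semaphorins, were led by *nrp1a* with 14, 15 and 25 counts and *nrp2b* with 17, 9 and 12. The plexins *plxna2* (ENSNFUG00015007792), above, and *plxnb2b* held 21, 24 and 16 counts and 13, 23 and 24.

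The untested *slit1a* held 7, 9 and 16 counts and *slit1b* 10, 6 and 6. Their receptors *robo1* (ENSNFUG00015024808), above, and *robo3* held 18, 21 and 14 counts and 16, 11 and 11. The 2 *srgap3* rows held 19, 19 and 14 counts (ENSNFUG00015005261) and 7, 17 and 16 (ENSNFUG00015020053). Netrins were nearly absent apart from *ntn5*, with 8, 18 and 29 counts, and *ntn1*, which encodes the founding vertebrate netrin, held 4, 4 and 3. The netrin receptors *unc5a* and *unc5b* held 23, 11 and 22 counts and 12, 13 and 14.

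Among the untested ephrins, *efnb1*, a transmembrane ephrin, held 7, 6 and 29 counts, *efna1a* held 8, 6 and 15, and *ephb4a*, a receptor of ephrin-B ligands, held 11, 13 and 28. The counts of *efnb1* in aged (Tm) replicates were 6, 1 and 22. The next Eph receptor, *ephb1* (ENSNFUG00015025213), held 14, 19 and 10. The Notch ligands *jag2b* and *dll4* (ENSNFUG00015002396) held 21, 26 and 35 counts and 9, 12 and 12, the other *dll4* row (ENSNFUG00015017304) held 7, 15 and 7, and the receptors *notch1b* and *notch3* held 14, 19 and 15 and 3, 11 and 12. By edgeR without the filter none of these rows was called. DESeq2 called this *ephb1* row lower in aged (Tm) over aged samples (−2.24, adjusted p = 0.0478), and *sema3fa* above (−1.69, adjusted p = 0.0733). It also called *sema4ga* (−2.83, adjusted p = 0.0335) and *plxna4* (−1.92, adjusted p = 0.0714) lower there. Of the 65 members that DESeq2 tested in this comparison, 13 were lower and 2 higher. Its share over all genes is not given, so these names do not set the members apart from other genes. Among rows with at least 50 counts, edgeR called *sema3fa*, *sema6d*, *sema6dl*, *plxna4*, *plxna2* (ENSNFUG00015007792), *robo1* (ENSNFUG00015024808) and *srgap3* (ENSNFUG00015005261) lower in that comparison. Over young samples DESeq2 called the untested *nrp2* lower (−2.47, adjusted p = 0.0883). The edgeR fit of rows with at least 50 counts called the untested *plxna4* and *sema5a* lower over young samples. In that comparison DESeq2 called 4 of 53 members and this edgeR fit 6 of 36. No share of all genes is given for either. There were 5 members at 0 in all aged (Tm) libraries, 1 *efna2* row, *efna3a*, *efna5a*, *efnb3* and *sema4gb*, of which the ephrins held at most 4 counts in all. There were 3 members at 0 in all aged libraries and 4 in all young libraries.

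Of 53 partners and effectors of plexins, Robo and netrin receptors 12 were tested, and in aged (Tm) over aged samples 1 rose and 2 fell, with a median of −0.24 on the log2 scale, against 18.5% higher and 20.2% lower of all genes tested. The one that rose was *rras*, a Ras family GTPase on which plexins act, with group means of 104 ± 53.4, 83.9 ± 41.4 and 648 ± 283 CPM (3.27 ± 0.66, adjusted p = 0.00285, edgeR). Those that fell were *mical3a*, of a family of enzymes that oxidise actin (−1.68, adjusted p = 0.0314), and *triob*, a guanine nucleotide exchange factor (−1.52, adjusted p = 0.0523). The call of *mical3a* was lost without aged replicate 1 or 4 or aged (Tm) replicate 1 or 2 (−1.24 to −1.59), and that of *triob* without aged replicate 1, 3 or 4 or aged (Tm) replicate 1 or 2 (−1.11 to −1.46). In aged (Tm) over young samples *rras* (2.94, adjusted p = 0.00403) and the kinase *pak2a* (1.64, adjusted p = 0.0413) rose and none of the 12 fell, and *pak2a* was not called without young replicate 2 (1.55) or under scaling by totals (1.36) or the upper quartile (1.27). The sum of this list was 1694 to 2057 CPM in young, 1781 to 2576 CPM in aged and 2021 to 2594 CPM in aged (Tm) libraries, with overlap between all groups. In the aged (Tm) group *rras* made up 648 CPM of it on average.

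Of 18 Eph and ephrin effectors 4 were tested. In aged (Tm) over aged samples *crk*, an adaptor that binds phosphorylated receptors, rose (1.53, adjusted p = 0.0287) and a *vav3b* row, a guanine nucleotide exchange factor, fell (−1.86, adjusted p = 0.0560), as it did over young samples (−1.69, adjusted p = 0.0982). *crk* was not called without aged (Tm) replicate 1 (1.36), under scaling by totals (0.93) or under the upper quartile (0.99), and *vav3b* not without aged replicate 3 or 4 or any 1 aged (Tm) replicate (−1.34 to −1.82). Over young samples *vav3b* was not called without aged replicate 1, 3 or 4, young replicate 2 or 3 or any 1 aged (Tm) replicate (−1.42 to −1.70). Of 50 genes of Notch processing, transcription and targets 10 were tested, with 0 higher, 2 lower and a median of −0.69, against the same 18.5% and 20.2% of all genes tested. Those that fell were *her9*, a repressor of the Hairy and Enhancer-of-split family, from 329 ± 124 CPM in aged to 99.2 ± 55.0 CPM in aged (Tm) samples (−1.47, adjusted p = 0.0484), and 1 of 2 *itch* rows, a ubiquitin ligase of Notch (−1.52, adjusted p = 0.0872). The *itch* call was lost without aged replicate 3 or 4 (−1.22 and −1.32) and under RLE scaling (−1.34). *her9* was also lower than in young samples (326 ± 74.2 CPM, −1.48, adjusted p = 0.0564). The *her9* calls were lost without aged replicate 4 or aged (Tm) replicate 1 or 2 (−0.99 to −1.31 over aged and −1.22 to −1.37 over young samples), and the second also without aged (Tm) replicate 3 (−1.38) or young replicate 2 (−1.30). In aged over young samples none of the tested genes of these 3 lists was called.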

How the data were processed

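UMI counts per gene were deposited as 1 table of whole counts without normalization, 11 columns for 4 young, 4 aged and 3 aged (Tm) libraries. The submitters' processing notes name UMI-tools 1.0.0, HISAT2 2.1.0, featureCounts 1.6.4 and DESeq2 1.20.0, and the genome build is not given in the sources used here. A deposited list of primer barcodes was used only to count shared barcodes. The 99 members, the marker and pathway lists and the tests were chosen with earlier results of these data known.

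Counts were fitted in 1 model of all 11 libraries with edgeR 4.0.16 in R 4.3.3 (quasi-likelihood test, two-sided, TMM, filterByExpr by group, Benjamini-Hochberg, adjusted p of 0.1). Alternatives used DESeq2 1.42.0, the tool the study names, and limma voom (limma 3.58.1), with other scalings, filters, thresholds and covariates. CPM are scaled to 1e+06 counts per library. Every tested member was named, and of the others the 2 rows with the most counts in each family. *sema4gb* and other rows beyond this rule were named after their values were seen. The fit was tested on simulated data. Figures were drawn with matplotlib 3.10.9. No sequence tables were used here.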

Additional observations from a re-analysis of the deposited data

Results flagged for a closer look

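One value stood apart from the other libraries of its group. *sema3c* had 43.6 CPM in young replicate 2, from 6 counts, while the other young replicates had 56.1 to 57.0 CPM. The gap was 0.933 of the range of the group. Such gaps were looked for in 46 groups of libraries, with a cutoff that chance passes in about 1 in 20 groups. Some values past the cutoff therefore come by chance.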

How the results depend on the processing

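Counts per row and library limit every value here. The filter was run anew when libraries were left out or only 2 groups were compared, so the members tested can differ between the runs below. The 22 members called with only the 2 groups compared need therefore not be the 22 members of the main fit. The share of all genes called is given above for the fits without a filter and by average level. It is also given for DESeq2 in aged over young samples and for the neural list in aged (Tm) over aged samples. For most other runs neither this share nor the number tested is given. The counts below therefore describe the runs and do not set the members apart from other genes. In aged over young samples 0 members were called, and 1 (*plxna2*) with DESeq2, with a threshold of 0.5 and with the neural list as a covariate, and 5 with the muscle list as a covariate. Leaving out 1 library gave 0 to 0. In aged (Tm) over aged samples 13 were called, and 4 without a filter, 22 with only the 2 groups compared, 0 after thinning (no member was left to test), 20 with a threshold of 0.5, 0 with the neural list as a covariate, 6 with the muscle list as a covariate, 8 with genes taken by average level and 6 without both aged replicates 1 and 3. Leaving out 1 library gave 6 to 19. In aged (Tm) over young samples 4 were called, and 8 with the upper quartile, 2 by totals, 8 with at least 10 counts in 3 libraries, 8 with only the 2 groups compared, 0 after thinning, 2 at a threshold of 0.05, 18 at 0.5, 0 with the neural and 0 with the muscle list as a covariate and 7 without both aged replicates 1 and 3. Over all genes tested there, the upper quartile called 406 higher and 907 lower, and totals called 346 higher and 474 lower. Leaving out 1 library gave 1 to 10 members. The filters by average level and by 50 counts and the fit without both aged replicates were chosen after seeing the data. The sign of *slit2* in aged (Tm) over aged samples turned with the neural list as a covariate (0.0950), as did that of *triob* (0.275), and that of *vav3b* in aged (Tm) over young samples turned with the muscle list (0.671). No other sign of a called member or effector turned in an alternative run. The causes were not tested. The neural sums of aged and aged (Tm) libraries and the muscle sums of young and aged (Tm) libraries did not overlap. In those comparisons the covariate and the group cannot be told apart. With the replicate number as a block, 0, 13 and 4 members were called. The deviations of same-numbered libraries of 2 groups had correlations of −0.51 to 0.38. Libraries of different numbers were not compared in this way, so whether the numbers pair the libraries was not tested.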
